A study of Mus musculus with 2 samples.

Results

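Cells with a value over 0 for Pax6 and with Olig2, Pdgfra, Sox10, Dcx, Gad1 and S100b all listed at 0, called Pax6+Olig2- cells from here on, made up 117 of 12805 cells in mouse cortical neurospheres. The single-cell RNA-seq data come from 2 replicate cultures, and the class, chosen by the listed values of these 7 genes, held 16 of 5748 cells in culture 1 and 101 of 7057 cells in culture 2. Both cultures were started from the dorsal telencephalon of wild-type embryos at embryonic day 14.5, were passaged repeatedly as floating spheres with the mitogens EGF (epidermal growth factor) and bFGF (basic fibroblast growth factor) at 10 ng/ml each, and were dissociated before droplet capture. The cultures received no further treatment, and nothing in the sources used here ties a culture to a number of embryos. The class was compared within each culture with Pax6+Olig2+ cells, in which Pax6 and Olig2 were both over 0 (1188 and 1520 cells in cultures 1 and 2), and with cells in which Pax6 and the same 6 genes were all at 0 (83 and 428 cells).

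Pax6 encodes a paired-box and homeodomain transcription factor of the radial glia that line the dorsal telencephalon, where it is used to tell cortical progenitors from the ventral ones. Olig2 encodes a basic helix-loop-helix factor of ventral progenitors and of the oligodendrocyte lineage, and it is known to become widespread in neural progenitors that are grown in bFGF. The other 5 genes mark further fates: Pdgfra, a growth factor receptor, and Sox10, a transcription factor, mark oligodendrocyte progenitors, Dcx, a microtubule-binding protein, marks migrating neuroblasts, Gad1, the enzyme that makes GABA, marks inhibitory neurons, and S100b, a calcium-binding protein, marks glia. On GRCm38, Pax6 lies on the forward strand at chr2:105668900-105697364 and Olig2 on the forward strand at chr16:91225457-91228677, both protein-coding genes.

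Olig2 was listed at 0 about as often in cells with Pax6 as in cells without it. In culture 1, 27 of 1215 Pax6+ cells had Olig2 at 0, or 2.22% (exact 95% interval 1.47 to 3.22), against 131 of 4533 cells with Pax6 at 0, or 2.89% (2.42 to 3.42). In culture 2, the shares were 113 of 1633 Pax6+ cells, or 6.92% (5.74 to 8.26), and 461 of 5424 cells with Pax6 at 0, or 8.50% (7.77 to 9.27). Both genes belong to the rule, so these shares are given without a test, and the intervals cover counting error only.

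Total UMIs (unique molecular identifiers, the number of RNA molecules counted in a cell) differed between the classes, so the shares were also given within 5 equal groups of cells by total UMIs, set in each culture. From the shallowest to the deepest group, the share of Pax6+ cells with Olig2 at 0 was 6.19%, 4.43%, 2.21%, 1.05% and 0.773% in culture 1. In culture 2, it was 14.8%, 8.10%, 8.68%, 6.61% and 2.98%. The share was therefore lowest in the deepest cells of both cultures. With the 5 depth groups of the cells without Pax6 weighted to those of the Pax6+ cells, Olig2 was at 0 in 2.24% and 6.69% of the former, a difference of −0.02 and 0.23 percentage points from the Pax6+ cells. At matched depth, a cell with Pax6 and a cell without it thus had close to the same share with Olig2 at 0 in each culture.

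**Figure D1:**
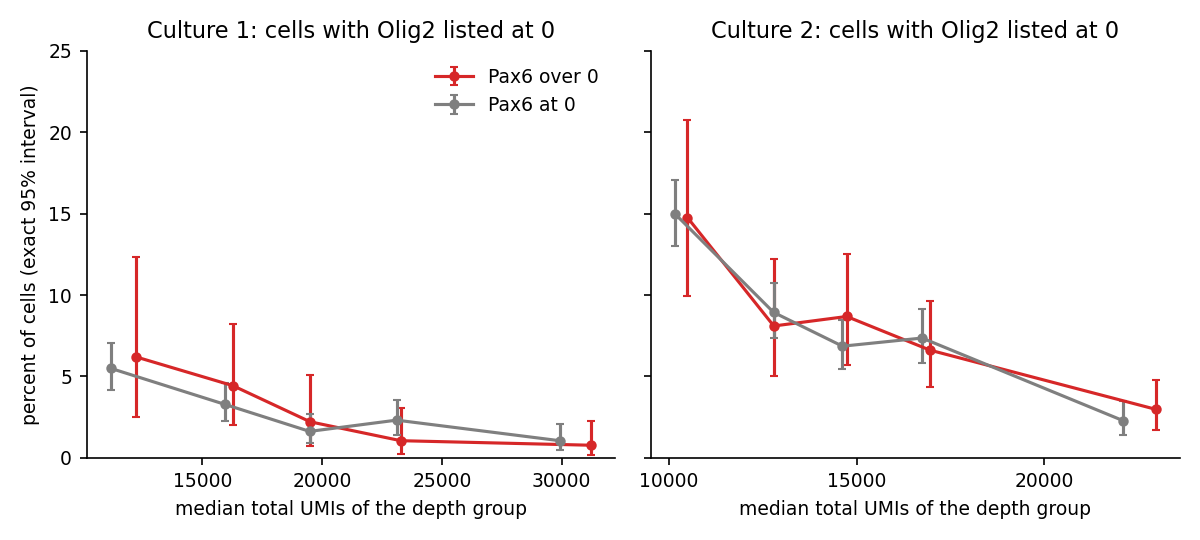
Percent of cells with Olig2 listed at 0 (vertical axis, exact 95% intervals) against the median total UMIs of 5 equal depth groups (horizontal axis), for Pax6+ cells (red) and cells with Pax6 at 0 (gray) in each culture. Both lines are lower in the deepest group than in the shallowest, at 0.773% against 6.19% in the Pax6+ cells of culture 1 and 2.98% against 14.8% in those of culture 2, with small rises between, and their intervals overlap in every group.

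Depth was lower in the Pax6+Olig2- cells than in the Pax6+Olig2+ cells. The median was 16484 total UMIs in culture 1 (range 10065 to 30564) and 14001 in culture 2 (6491 to 25196). The Pax6+Olig2+ cells had medians of 22426 and 16464, and all cells 19477 and 14637. Of the Pax6+Olig2- cells, 5 of 16 in culture 1 and 43 of 101 in culture 2 lay over the median of their culture, so the class is not made of shallow cells alone. The cells with Pax6 and the 6 genes at 0 were shallower again in both cultures, at 15385 and 12574.

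**Figure D2:**
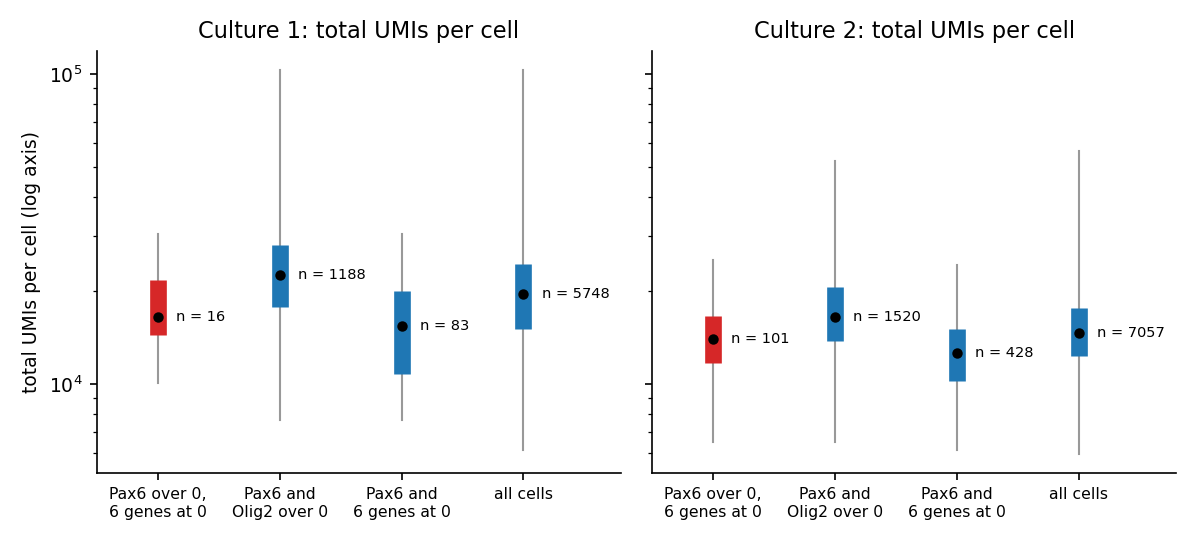
Total UMIs per cell (vertical axis, log scale) in 4 classes of cells in each culture. Dots mark medians, thick bars the quartiles and thin lines the full range. The Pax6+Olig2- cells (red) have medians of 16484 and 14001, below the 22426 and 16464 of the cells with Pax6 and Olig2 over 0.

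A minority of Pax6+ cells held Olig2 at one of its lowest values over 0. Among the Pax6+Olig2+ cells whose other 5 genes were at 0, the 3 lowest Olig2 values were 0.336, 0.353 and 0.357 in culture 1 and 0.841, 0.907 and 0.986 in culture 2, on the authors' linear scale normalized for depth. Values of a low gene come in steps, and 45 Pax6+ cells of culture 1 and 189 of culture 2 held the lowest step of Olig2, against 27 and 113 at 0. The next step held 92 and 239 cells, and step 4 or higher held 950 of 1215 and 861 of 1633 Pax6+ cells. With each value rounded to its nearest step, the cells at 0 were fewer than those at the lowest step, and those fewer than at the next. Whether a step is 1 molecule could not be settled from these values, and the steps of Olig2 were much less regular than those of Pax6. Over all cells, 30.9% and 51.4% of the Olig2 values over 0 lay within 0.1 of a whole step in cultures 1 and 2. For Pax6, 96.6% and 97.7% did. In culture 1, 46 Olig2 values lay well under the lowest step and were counted at it. The order of the Olig2 counts is therefore approximate, most of all in culture 1.

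Pax6 itself was low in the class, as it was in the Pax6+Olig2+ cells. Its values ran from 0.458 to 2.87 (median 0.920) in the 16 cells of culture 1 and from 0.349 to 4.42 (median 0.766) in the 101 cells of culture 2. In the Pax6+Olig2+ cells, the medians were 0.816 and 0.661. The lowest step of Pax6 was held by 7 of the 16 cells and 58 of the 101 cells, so membership often rested on the smallest value that Pax6 can take. These are 43.8% and 57.4% of the class, against 41.1% and 52.7% of the Pax6+Olig2+ cells at that step. Among all Pax6+ cells, step 3 of Pax6 held only 12 and 24, against 523 and 532 at step 2 and 179 and 211 higher. What a step of Pax6 stands for was not tested. Of all cells, 21.1% in culture 1 and 23.1% in culture 2 had Pax6 over 0, and in both cultures that share rose from the shallowest depth group (9.83% and 13.0%) to the deepest (33.7% and 38.0%). Among cells with Pdgfra and Sox10 over 0, markers of oligodendrocyte progenitors, a type not known for Pax6, Pax6 was over 0 in 15 of 72 cells of culture 1, or 20.8% (12.2 to 32.0, median 21724 UMIs), and in 4 of 18 cells of culture 2, or 22.2% (6.41 to 47.6, median 20148 UMIs). These cells were deeper than all cells, and the shares were not compared at matched depth.

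The other 5 genes removed 11 of the 27 Pax6+ cells with Olig2 at 0 in culture 1 and 12 of the 113 in culture 2. S100b removed the most, being over 0 in 6 and 9 of these cells, while Pdgfra was over 0 in 3 and 2, Dcx in 2 and 1, Sox10 in 1 and 0, and Gad1 in 0 of 27 and 0 of 113 cells. These counts allow up to 12.8% and 3.21% of such cells to be listed with Gad1 (exact upper bounds), and set no limit on the cells that express it. Of the Pax6+Olig2+ cells, 34.01% in culture 1 and 11.3% in culture 2 had at least 1 of the 5 genes over 0. The share of the class among all cells was 0.278% (0.159 to 0.452) in culture 1 and 1.43% (1.17 to 1.74) in culture 2, and the share of all cells with Olig2 at 0 was likewise lower in culture 1, at 2.75% against 8.13%.

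Some markers of radial glia were listed in most Pax6+Olig2- cells. Fabp7, a fatty acid-binding protein, Vim, an intermediate filament, and Ptn, a secreted growth factor, were over 0 in all 117 cells. Slc1a3, a glutamate transporter, was over 0 in 110 and Nes, the filament protein nestin, in 101. Fabp7 and Ptn were also over 0 in all Pax6+Olig2+ cells, and Vim in 1183 of 1188 and 1520 of 1520. The listing of Fabp7, Vim and Ptn thus did not set the class apart. Nes was over 0 in 12 of 16 cells of the class against 1142 of 1188 Pax6+Olig2+ cells in culture 1. In culture 2, it was over 0 in 89 of 101 against 1383 of 1520. The means of Nes were closer, at 4.11 against 4.60 in culture 1 and 3.98 against 4.30 in culture 2. Hes1, a target of Notch, was listed in 57 of the 117 cells and Sox9, a glial transcription factor, in 47. Transcription factors of the dorsal telencephalon were listed less widely: Lhx2 in 56 cells and Emx2 in 22. Genes of the oligodendrocyte progenitor list that the rule did not use were listed as well, with Serpine2 in 115 cells, Cspg5 in 92, Bcan in 76 and Cspg4 in 15. Genes of the neuronal list were also present, with Gap43, a growth cone protein, in 105 and Map2, a dendritic microtubule protein, in 72. Several markers of these fates, among them Sox2, Emx1, Eomes, Neurog2, Olig1 and Gfap, were not analysed here. In cultures 1 and 2, the Pax6+Olig2+ cells listed Serpine2 in 99.9% and 99.5%, Cspg5 in 93.3% and 80.3% and Bcan in 94.1% and 71.1%. Cspg4 was over 0 in 13.0% and 13.9% of them, Gap43 in 90.2% and 94.9% and Map2 in 80.9% and 68.3%. Hes1 was over 0 in 51.4% and 56.1% of them and Sox9 in 76.5% and 49.0%. The class was shallower, and none of these shares was compared at matched depth.

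No gene of those marker lists was called between the Pax6+Olig2- cells and the Pax6+Olig2+ cells. Against the Pax6+Olig2+ cells, 0 of 18 radial glia genes, 0 of 5 dorsal telencephalic genes, 0 of 3 ventral telencephalic genes, 0 of 13 oligodendrocyte progenitor genes and 0 of 14 neuronal genes passed the limma test at an adjusted p under 0.05. At an unadjusted p under 0.05, the counts higher and lower were 3 and 2, 1 and 0, 0 and 0, 0 and 2, and 1 and 1. Fabp7 averaged 109 in the Pax6+Olig2- cells against 96.0 in culture 1 and 94.4 against 90.9 in culture 2, a log2 difference of 0.12 (limma adjusted p = 0.241). Lhx2 averaged 1.35 against 0.804 and 1.15 against 0.897, a log2 difference of 0.53 (limma adjusted p = 0.611). Bcan averaged 2.82 against 2.59 and 2.34 against 2.22, and Map2 1.33 against 1.63 and 1.52 against 1.72, with limma adjusted p-values of 0.978 and 0.924. A p that misses the threshold does not show that these levels were alike, and with 16 cells in culture 1 the class means of low genes rest on few cells.

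Among all 8648 genes tested against the Pax6+Olig2+ cells, 23 were called, or 0.266%. Of these, 13 were higher in the Pax6+Olig2- cells (0.15% of genes tested) and 10 lower (0.116%), while the median log2 difference of all genes was −0.04. The means compared are of all cells of a class in a culture on the log2(mean value + 0.05) scale, with the culture as a block, and 551 genes had an unadjusted p under 0.05. Within a culture, values can be compared between classes, while the level of a gene cannot be compared between the cultures. Without the culture block limma called 0 genes, with 255 at an unadjusted p under 0.05. In cells over the median total UMIs, which left 5 cells of the class in culture 1, 8 genes were called, of which Acta2 alone was among the 23. The sign was kept by 22 of the 23, some with very small differences (Apoe 0.0047, Lgals1 −0.0032). These cells are part of those in which the 23 were called, so a kept sign is no separate support.

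Apoe, the lipid carrier made by astroglia, had the smallest adjusted p. Its mean was 4.0 in the 16 Pax6+Olig2- cells against 2.37 in the Pax6+Olig2+ cells of culture 1, and 11.6 against 3.08 in culture 2. The fitted log2 difference was 1.32 ± 0.13 (limma SE over 2 cultures, limma adjusted p = 5.21e-20). This SE, like those below, comes from the spread of all genes at a like level, not from that of Apoe alone. In culture 2, a single cell with a value of 498 held 43% of the class total, and without the highest cell of either class the means were 6.73 and 2.92. The medians were 0.726 against 0.640 in culture 1 and 0 against 0 in culture 2, and Apoe was over 0 in 93.8% against 76.0% of the cells of culture 1 and in 46.5% against 43.4% of those of culture 2. In culture 2 the difference thus lay in the high cells, while in culture 1 the low end differed as well, with first quartiles of 0.370 against 0.0598. In cells over the median total UMIs the fitted difference was close to 0, at 0.0047 (limma adjusted p = 0.998).

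Apoe belongs to the astroglial list, of which 3 of 18 genes tested were called higher and none lower, beside 0.15% of all genes called higher. The other called genes of the list were Mt2 and Mt3, metal-binding metallothioneins. Mt3 averaged 20.4 against 19.0 in culture 1 and 30.6 against 22.2 in culture 2, a log2 difference of 0.28 ± 0.07 (limma adjusted p = 0.0234). Mt2 averaged 5.54 against 5.08 and 10.8 against 6.41, a log2 difference of 0.44 ± 0.11 (limma adjusted p = 0.0341). Both differences were small in culture 1 and larger in culture 2. Against only those Pax6+Olig2+ cells that had the other 5 genes at 0 as well, S100b included, 16 of the 23 genes were called, Apoe among them, while Mt3 (limma adjusted p = 0.0644) and Mt2 (0.172) were not. The median log2 difference of the list was 0.27, and 9 of its genes were higher in both cultures and 1 lower. Over all 8648 genes tested, 2115 were higher in both cultures and 2370 lower. S100b, the astroglial gene of the rule, is at 0 in every Pax6+Olig2- cell by choice.

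Hbegf and Pdgfa, which encode growth factor ligands, were also called higher. Hbegf, a ligand of the EGF receptor, averaged 2.11 against 0.962 in culture 1 and 1.51 against 0.880 in culture 2 (log2 difference 0.92 ± 0.20, limma adjusted p = 0.00658). Pdgfa, the ligand of the receptor that Pdgfra encodes, averaged 1.67 against 0.777 and 1.73 against 1.03 (0.89 ± 0.21, limma adjusted p = 0.0121). For both genes the class was higher in each culture, although 1 cell held 45% of the Hbegf total and 36% of the Pdgfa total of the 16 cells in culture 1. Ednrb, an endothelin receptor of radial glia and astrocytes, averaged 6.90 against 3.17 in culture 1 and 3.16 against 2.91 in culture 2 (0.61 ± 0.14, limma adjusted p = 0.00683), and most of that difference lay in culture 1. Egfr, the receptor of EGF, averaged 0.460 against 0.639 and 0.602 against 0.701 and was not called (limma adjusted p = 0.925). Cpe, a carboxypeptidase that processes neuropeptides, averaged 5.81 against 3.30 and 3.94 against 2.97 (0.60 ± 0.14, limma adjusted p = 0.00691), with higher medians in both cultures (5.40 against 2.70 and 3.20 against 2.58).

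Cdkn1a, which encodes the cell-cycle inhibitor p21, averaged 12.2 against 7.47 in culture 1 and 9.93 against 8.14 in culture 2, a log2 difference of 0.49 ± 0.10 (limma adjusted p = 0.000966). The medians were close, at 5.72 against 5.81 and 6.71 against 6.31, so the means differed mainly through cells with high values. Acta2, a smooth muscle actin, averaged 3.09 against 2.55 and 5.20 against 2.40 (0.69 ± 0.15), and was over 0 in 37.5% of the class against 44.4% in culture 1 and in 38.6% against 36.8% in culture 2. Its medians were 0 in both classes of both cultures, so its means also rested on cells with high values. Without the highest cell of each class, the Acta2 means were 2.09 against 2.52 in culture 1, the opposite direction. In culture 2 they were 4.17 against 2.33. Tmsb4x, an actin-binding peptide, averaged 152 against 137 and 151 against 137 (0.14 ± 0.03, limma adjusted p = 0.0234), a difference that was close in the 2 cultures. Its call was lost with cell-cycle position weighted alike (limma adjusted p = 0.103) and against Pax6+Olig2+ cells with the other 5 genes at 0 (0.404).

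**Figure D3:**
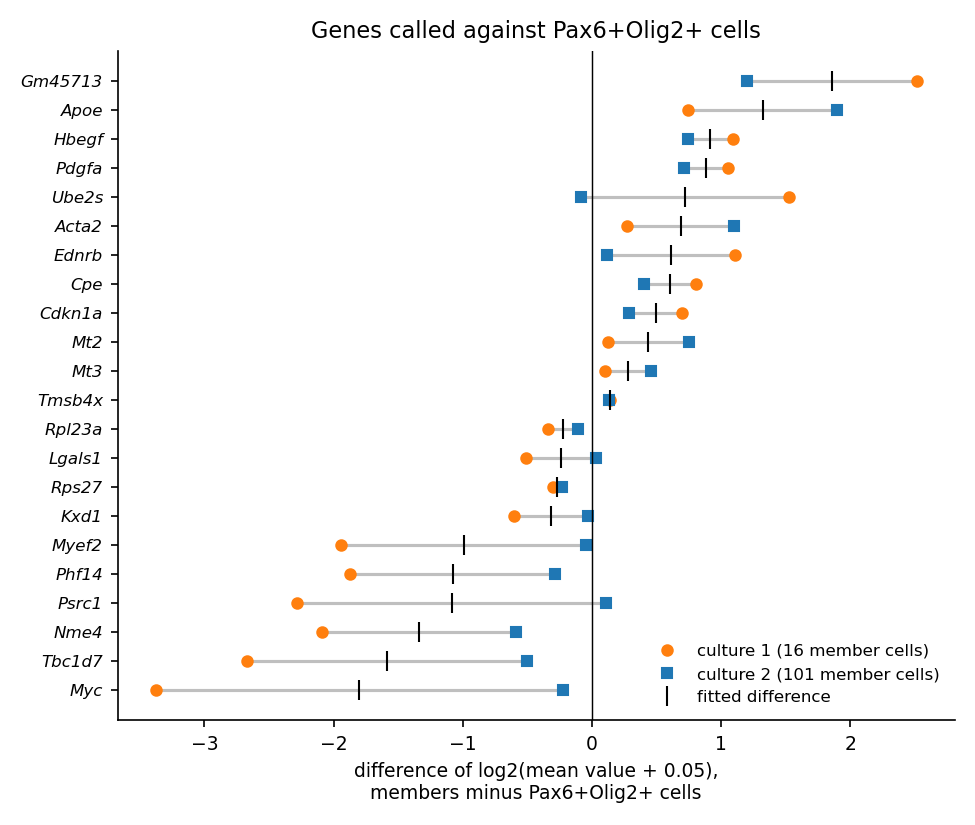
Difference in log2(mean value + 0.05) between the Pax6+Olig2- cells and the Pax6+Olig2+ cells (horizontal axis) for 22 of the 23 genes called, in culture 1 (circles, 16 cells), culture 2 (squares, 101 cells) and as fitted over both (bars). The culture values of Tmsb4x, Hbegf and Pdgfa lie close together, while Myc, Phf14 and Myef2 lie far to the left in culture 1 and closer to 0 in culture 2.

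The genes called lower in the class were mostly low genes with few listed cells in culture 1. Myc, a growth-promoting transcription factor, was listed at 0 in all 16 cells of culture 1, against a mean of 0.470 in the Pax6+Olig2+ cells, and averaged 0.317 against 0.378 in culture 2, so its fitted difference of −1.80 depends on the pseudocount. Tbc1d7, a partner of the TSC growth control complex, was listed in 1 of 16 cells, and averaged 0.0399 against 0.524 in culture 1 and 0.345 against 0.511 in culture 2 (log2 difference −1.59 ± 0.35, limma adjusted p = 0.00458). Nme4, a mitochondrial nucleoside diphosphate kinase, was likewise listed in 1 cell of culture 1, with means of 0.0746 against 0.480 and 0.292 against 0.463. Phf14 and Myef2 were lower by 1.87 and 1.94 on the log2 scale in culture 1, where they were over 0 in 3 and 6 cells, and by 0.28 and 0.05 in culture 2. The ribosomal protein genes Rps27 (24.0 against 29.6 and 27.7 against 32.6) and Rpl23a (24.0 against 30.4 and 48.9 against 52.8) were lower in each culture by a small amount, and neither was called with depth groups weighted alike (limma adjusted p = 0.173 and 0.0807) or against Pax6+Olig2+ cells with the other 5 genes at 0 (0.148 and 0.134). Nme4 and Phf14 lost their calls with cell-cycle position weighted alike (limma adjusted p = 0.0909 and 0.0788).

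Some calls cannot be read as a difference of the class. Ube2s, Psrc1 and Lgals1 had the opposite sign in culture 2, at log2 differences of −0.08, 0.11 and 0.03. Gm45713 overlaps Rpl13a and Flt3l, and all of its signal in the class in culture 1 came from 1 cell. Of the 23 genes, 5 overlap another gene of the table, and the reads of overlapping genes can be split between them in counting.

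The genes that were higher in the Pax6+Olig2- cells could also be followed in cells without Pax6, with no test. With the other 5 genes at 0, the log2 difference of Apoe between cells with Olig2 at 0 and over 0 was 0.85 and 1.95 in cultures 1 and 2 among Pax6+ cells, and 0.63 and 1.32 among cells with Pax6 at 0. For Pdgfa these differences were 1.02 and 0.71 with Pax6, and 0.85 and 0.59 without it. For Cdkn1a they were 0.62 and 0.28 with Pax6, and 1.07 and 0.32 without it, where 1 cell with a value of 485 raised the mean of the 83 cells of culture 1 from 11.96 to 17.7. Of the 13 genes called higher, 9 were higher with Olig2 at 0 in both cultures among the cells without Pax6, and none was lower in both. Over all 8648 genes tested, 2565 were higher and 2050 lower in both cultures there. Among the cells without Pax6, Cpe (0.15 and −0.03) differed in sign between the cultures. So did Acta2, with means of 1.73 against 2.21 in culture 1 and 3.33 against 2.42 in culture 2. Ube2s (2.35 against 1.86 and 2.65 against 3.18) and Gm45713 (0.0125 against 0.167 and 0.778 against 0.416) did as well. Several of the genes that went with Olig2 being at 0 thus did so whether or not Pax6 was listed, and the difference between the 2 settings was not tested. These differences were not taken at matched depth. The cells with all 7 genes at 0 had medians of 15385 and 12574 total UMIs. All cells with Pax6 at 0 and Olig2 over 0 had 18924 and 14328.

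Signaling and cell-cycle lists gave few calls in this comparison. Of 43 S phase genes none was called, with a median log2 difference of 0.01, and of 47 G2 and M phase genes 1 was called lower, Psrc1, with a median of −0.10. None of the signaling genes was called: of 10 Notch pathway genes, 15 EGF and FGF response genes, 7 BMP and Id genes, 10 Wnt pathway genes, 2 immediate early genes and 4 SOX genes tested, 0 passed the limma test, and at an unadjusted p under 0.05 the numbers lower were 2, 3, 2, 0, 0 and 1, against 0, 1, 0, 0, 0 and 0 higher. Over all 8648 genes, 363 were lower and 188 higher at that p, so the background leaned the same way. Hes1, the transcriptional target of Notch, averaged 0.548 against 0.946 and 0.726 against 0.925 (log2 difference −0.53, limma adjusted p = 0.711). Sox9, a glial transcription factor, averaged 1.44 against 1.40 and 1.23 against 1.39 (−0.07, limma adjusted p = 0.989). Spry1, a feedback inhibitor of receptor signaling, averaged 1.28 against 1.56 and 1.15 against 1.60 (−0.37, limma adjusted p = 0.797).

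The second comparison held Olig2 and the other 5 genes at 0 and asked what went with Pax6 being listed. Genes of the G2 and M phases, which build and divide the mitotic chromosomes, were higher in the Pax6+Olig2- cells: 15 of 47 passed the limma test upwards and 0 downwards, with a median log2 difference of 0.87, and 42 were higher in both cultures. Over all 8648 genes, 47 were called, or 0.543%, of which 32 were higher (0.37%) and 15 lower (0.173%), with a median of −0.04. Of all these genes, 2102 were higher and 2389 lower in both cultures. Hmgb2, a chromatin protein, averaged 14.8 against 9.29 in culture 1 and 10.2 against 5.74 in culture 2 (log2 difference 0.75 ± 0.10, limma adjusted p = 6.73e-10). Top2a, the topoisomerase that untangles sister chromatids, averaged 4.49 against 2.44 and 3.02 against 1.39 (0.98 ± 0.17, limma adjusted p = 5.07e-05). Ccnb1, the mitotic cyclin B1, averaged 3.33 against 1.12 and 1.12 against 0.591 (1.20 ± 0.23, limma adjusted p = 0.000167). Without the culture block limma called 0 genes, with 283 at an unadjusted p under 0.05, while in cells over the median total UMIs 13 of the 47 genes remained called, among them Hmgb2, Top2a and Ccnb1. With depth groups weighted alike 30 of the 47 remained called, while Kif11, Incenp, Rrm2, Prox1, Nr4a2 and Actb did not.

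Other called genes of mitosis had like differences. Cenpe and Cenpf, proteins of the kinetochore, differed by 1.31 and 1.18, Kif11 and Kif22, spindle motors, by 1.42 and 1.29, Birc5 and Incenp, of the chromosomal passenger complex, by 1.04 and 1.18, and Cdk1, the mitotic kinase, by 0.92 on the log2 scale. Mki67, the proliferation marker, averaged 1.77 against 1.19 and 1.58 against 0.609 (0.93 ± 0.24, limma adjusted p = 0.0222). Of 43 S phase genes, Rrm2, a subunit of ribonucleotide reductase, was the only one called (0.62 ± 0.15), and the list's median log2 difference was 0.27. Its medians were −0.02 in culture 1 and 0.61 in culture 2. Fabp7 was the only called gene of 18 in the radial glia list, at 109 against 92.9 and 94.4 against 86.3 (0.18 ± 0.03, limma adjusted p = 0.000104).

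The G2 and M difference was also seen in cells with Olig2. Among cells with Olig2 over 0 and the other 5 genes at 0, the median log2 difference of the 47 genes between Pax6+ cells and cells with Pax6 at 0 was 0.64 in culture 1 and 0.81 in culture 2, and 46 genes were higher in both cultures. Of all 8648 genes tested, 2804 were higher and 2601 lower in both cultures among these cells with Olig2 over 0. Among cells with Olig2 at 0, the median of the 47 genes was 0.73 and 0.92. No cell is shared between these 2 differences. Top2a averaged 3.86 against 2.16 in culture 1 and 3.94 against 1.73 in culture 2 when Olig2 was over 0. It was thus higher with Pax6 there too, and the difference between the 2 settings was not tested.

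**Figure D4:**
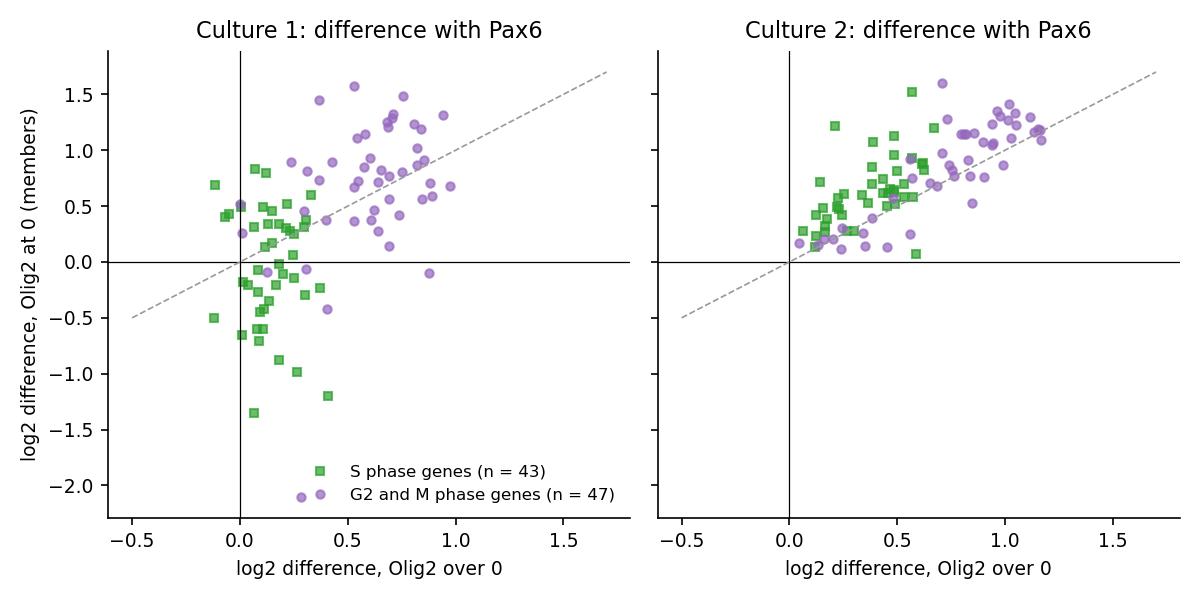
Log2 difference between cells with Pax6 over 0 and cells with Pax6 at 0, among cells with Olig2 at 0 (vertical axis) and among cells with Olig2 over 0 (horizontal axis), for S phase genes (squares, 43) and G2 and M phase genes (circles, 47) in each culture. The dashed line marks equal differences. Of the G2 and M genes, 42 lie over 0 on the vertical axis in both cultures, and 46 on the horizontal axis.

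Pax6 was listed more often in cells staged G2M. By the authors' Seurat stages, Pax6 was over 0 in 15.4% of G1, 20.6% of S and 30.8% of G2M cells in culture 1, and in 16.3%, 26.7% and 36.1% in culture 2. With the depth groups weighted alike, the shares were 16.8%, 20.03% and 29.0% in culture 1 and 16.9%, 25.7% and 33.6% in culture 2. The mean value of Pax6, which is normalized for depth, was 0.159, 0.194 and 0.329 in G1, S and G2M cells of culture 1, and 0.143, 0.222 and 0.335 in those of culture 2. Olig2 did not follow this order, with means of 6.25, 5.04 and 5.62 in culture 1 and 5.62, 5.25 and 5.74 in culture 2. With 8 classes of cell-cycle position weighted alike, 0 of the 47 G2 and M genes were called and their median difference was 0.13, which follows in part from the construction, since the position is itself computed from such genes.

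**Figure D5:**
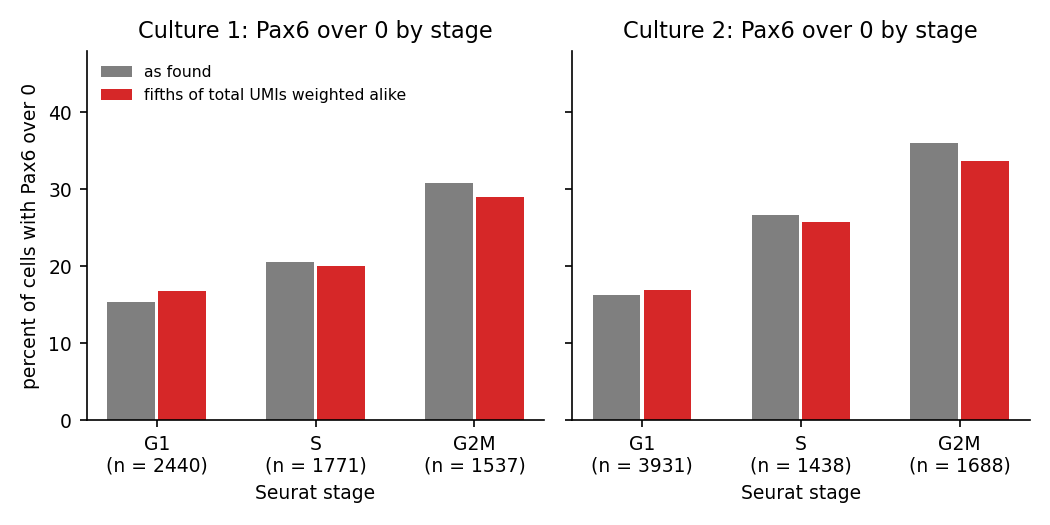
Percent of all cells with Pax6 over 0 (vertical axis, from 0) by the authors' Seurat stage (horizontal axis) in each culture, as found (gray) and with 5 depth groups weighted alike (red). G2M cells have the highest share in both cultures, at 30.8% and 36.1% as found and 29.0% and 33.6% weighted.

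The S and G2M shares of the Pax6+Olig2- cells did not differ from those of the Pax6+Olig2+ cells in one direction over the 2 cultures. G2M cells were 50.0% of the class in culture 1 (24.7 to 75.3) against 38.9% of the Pax6+Olig2+ cells, and 25.7% in culture 2 (17.6 to 35.4) against 38.2%. The interval of culture 1 includes the compared share, while that of culture 2 lies below it, and both cover counting error only. G1 cells were 37.5% and 46.5% of the class against 30.9% and 38.5%, higher in both cultures, with intervals from 15.2 to 64.6 and 36.5 to 56.7 that include the compared shares. S cells were 12.5% and 27.7% against 30.2% and 23.3%. Compared with the cells in which Pax6 and the 6 genes were at 0, the class had more G2M cells in both cultures, since these made up 21.7% and 14.0% there. Phase calls read the same genes as the lists above and do not by themselves show cycling. With 2 cultures, a paired exact permutation test of a share cannot go below p = 0.5, so no test was made.

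Genes called lower than in the cells with all 7 genes at 0 were again mostly low ones. Of the 15, Myc, Sergef, Prox1, Klhdc4, Ascc3 and Herpud1 were listed at 0 in all 16 Pax6+Olig2- cells of culture 1. In culture 2, the class averaged 0.269 against 0.346 for Prox1, a homeobox factor, and 0.317 against 0.410 for Myc. Among genes with higher levels, Map1b, a neuronal microtubule-associated protein, was lower in both cultures, at 2.80 against 5.10 and 3.75 against 4.94 (log2 difference −0.62 ± 0.14, limma adjusted p = 0.00623). Actb, the cytoskeletal actin, averaged 67.8 against 77.8 and 73.2 against 78.8 (−0.15 ± 0.04, limma adjusted p = 0.0222). Apoe and Cdkn1a were not called in this comparison. Cdkn1a averaged 12.2 against 17.7 in culture 1, where the latter was 11.96 without its highest cell, and 9.93 against 10.7 in culture 2. Nr4a2, a nuclear receptor, was called higher, at means of 0.507 against 0.0160 in culture 1, where 5 cells of the class listed it, and 0.142 against 0.0718 in culture 2, where 9 did (log2 difference 1.87 ± 0.50, limma adjusted p = 0.0381). Of the 47 genes, 10 overlap another gene of the table, and strand use in counting is not given in the sources used here.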

How the data were processed

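The tables deposited by the authors hold expression values of 10666 genes in 12805 cells and a description of each cell. The authors quantified spliced counts with Alevin (Salmon 1.3.0) on GRCm38, took them as expression, and removed shallow cells, outliers and cells with high doublet scores, so no doublet caller was run here. The deposited expression values are a signal on a linear scale, normalized for depth by the authors, with a median sum per cell of 11598 in culture 1 and 11399 in culture 2. In addition, each gene carries a factor in each culture that brings the gene means of the cultures close (median log2 ratio 0.09), so levels are compared within cultures only. Of the values of low genes, 89.7% and 89.9% lay within 0.05 of a whole multiple of a step, but this did not hold for all genes, so no count model was used. The depth of a cell is its deposited total of estimated counts (5957 to 103199 UMIs). Cell-cycle positions and the stages of 3 methods were used as deposited, as other values.

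Class means per culture were compared with limma 3.58.1 in R 4.3.3 (lmFit, eBayes with trend) on log2(mean value + 0.05) for genes with a mean of at least 0.05, without the 7 genes of the rule, with Benjamini-Hochberg adjustment over 8648 genes and calls at an adjusted p under 0.05. Culture was a block, since both classes come from the same culture. Cells are not replicates, so n is 2 cultures. SEs and p-values rest only on a spread between cultures that was estimated from all genes at a like level. Such an estimate was used since 2 cultures leave 1 residual degree of freedom for a gene. A gene whose 2 cultures differed in size or sign could therefore still be called. On simulated data for the first comparison (8648 genes), 48% of genes changed by 1 and 98% changed by 2 on the log2 scale were called, and 9 of 8448 unchanged genes. The simulated noise was Gaussian, with the same spread for genes of a like level and in both cultures, as limma assumes. The real class means rest on 16 and 101 cells and on single high cells for some genes. These rates therefore do not give the share of false or missed calls in the real data. Shares have exact (Clopper-Pearson) 95% intervals. Named genes are the called genes with 1 direction in both cultures and under the depth and position weightings, up to 12 per direction, up to 4 per gene list, and a fixed set of progenitor markers. Called genes outside that rule (among them Ube2s, Lgals1, Hmgb2, Cdk1, Acta2 and Actb) were named after their values were seen. Of the called genes and the markers, 1 each is not reported here by name. Gene names were matched to 10662 genes. Across cultures, 48 barcodes were shared, none of them in a Pax6+Olig2- cell. The class and the gene lists were chosen with earlier results of these data known. The ependymal list and the list of microglia, endothelial, mural and meningeal markers had no gene in the table used here, and the Pax list had none besides Pax6.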

Additional observations from a re-analysis of the deposited data

How the results depend on the processing

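The 23 calls against the Pax6+Olig2+ cells and the 47 against the cells with all 7 genes at 0 depended on the spread that limma used. Without the replicate block for culture, limma called 0 and 0 genes, with 255 and 283 at an unadjusted p under 0.05. With means of log2(value + 1) over cells, 5 and 25 genes were called, without the filter on low values 2 and 21, and in cells over the median total UMIs 8 and 21, of which 1 and 13 were among the main calls and for which only 5 cells of the class remained in culture 1. With cell-cycle position weighted alike, 9 genes were called in the second comparison, 6 of them among the main calls, and 18 in the first. With depth groups weighted alike, the first comparison gave 24 calls, 18 of them among the main calls, and the second 32. A pseudocount of 0.01 gave 40 calls in the first comparison. With all Pax6+ cells that had Olig2 at 0 as the class, whatever the other 5 genes, the first comparison gave 2. Leaving out the cells with shared barcodes, an alternative chosen after the data were seen, kept all 23 calls of the first comparison and 34 of the 47 of the second, although no Pax6+Olig2- cell was left out. The cause of these changes was not tested, beyond the fewer cells or genes of some. The signs turned for Gm45713 in deep cells (−1.89 in the first and −0.73 in the second comparison), and for Rrm2 (−0.0088) and Pclaf (−0.095) with position weighted alike. With 1 culture left out, values in the first comparison ranged from −2.28 to 0.11 for Psrc1, from −0.082 to 1.52 for Ube2s and from −0.51 to 0.031 for Lgals1. The share of G1 cells minus that of the Pax6+Olig2+ cells, 7.33 points on average, was 2.83 with depth groups weighted alike and 4.08 by cyclone stages. With 1 culture left out, the share of Pax6+ cells with Olig2 at 0 ranged from 2.22% to 6.92% and that of the class among all cells from 0.278% to 1.43%. The differences in S and G2M shares, −6.64 and −0.68 points by Seurat, were −1.42 and 4.99 by SchwabeCC, whose stages do not match one to one and which has no G1 stage, 1.91 and −5.99 by cyclone, and 3.14 for G2M with depth groups weighted alike, so their signs depend on the method. Depth limits the class itself, since a value of 0 in a cell does not show that a gene is absent.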
